A study of Schmidtea mediterranea with 89 samples.

Results

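Planarian neoblasts that had been kept on a layer of mammalian feeder cells were compared with neoblasts that had never been cultured. The 15 libraries used in the contrasts were the 12 feeder libraries and the 3 uncultured libraries of experiment 4, out of 89 libraries in the series. The series covers 5 experiments on planarian neoblasts held under different culture conditions. All libraries came from Schmidtea mediterranea cells that the labels call SiRNeoblasts and give as wild type (WT). The labels do not explain that name, and nothing in them says whether the replicates came from separate animals or cultures, so each p-value below reflects how the libraries of a group vary, and that variation may be technical.

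The 5 groups were uncultured cells, cells after 1 day or 3 days on an HFF1 feeder, and cells after 1 day or 3 days on a MEF feeder, with 3 libraries each. HFF1 is a line of human foreskin fibroblasts, and MEF are mouse embryonic fibroblasts. The medium listed for cultured cells was KnockOut DMEM with fetal bovine serum, at 22 °C, and the labels do not say how neoblasts were separated from the feeder before lysis. Another 6 libraries of the same experiment, from cells on a flat plate without a feeder, shared the fit but entered no contrast.

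Neoblasts are the dividing adult stem cells of planarians, and the only source of new cells in the intact and the regenerating animal. They lose this capacity readily outside the animal, which is why culture conditions are tested. A feeder layer is a sheet of supporting cells that supplies secreted factors, matrix and contact to the cells placed on it.

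The deposited tables name genes only by SMED3 identifiers and do not pair them with gene names. The lists of neoblast, lineage, replication and stress markers therefore matched no identifier, the cell type label could not be checked against markers, and no function can be given to an identifier below. In these bulk libraries, fewer cells of a type and less RNA per cell cannot be told apart.

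Total counts ran from 6775383 to 42691160 over the 15 libraries. The uncultured libraries held 27362698, 42691160 and 28209192 counts. The MEF day 3 libraries of replicates 1 and 2 were the shallowest, with 7480255 and 6775383 counts, while replicate 3 held 19777036. The other 9 feeder libraries held between 12509543 and 22466600 counts. No pair of the 21 libraries held identical values.

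Feeder libraries were far from the uncultured state at day 1 and farther at day 3. The distance was taken as 1 minus Pearson's r between a library's log2 CPM (counts scaled to a common library size) and the mean of the uncultured libraries, over 26107 identifiers. The uncultured libraries lay at 0.0472, 0.0420 and 0.0354 from the mean of the other 2. The HFF1 libraries lay at 0.245, 0.205 and 0.226 at day 1 and at 0.325, 0.371 and 0.348 at day 3. The MEF libraries lay at 0.201, 0.234 and 0.240 at day 1 and at 0.495, 0.521 and 0.287 at day 3. Every day 3 library was farther from the uncultured mean than every day 1 library, and the MEF day 3 library of replicate 3 was the closest of the 6.

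The mean distance was 0.391 at day 3 and 0.225 at day 1 (n = 6 each, p = 0.005, exact two-sided permutation test within feeder, the smallest p that this design allows, 0.0106 after Benjamini-Hochberg adjustment over 17 such tests). The difference of 0.166 fell to 0.0921 without the 2 shallow MEF day 3 libraries (exact permutation p = 0.0125). These 2 libraries were both the shallowest and the farthest. With every library thinned to 6775383 counts, an alternative added after the data were seen, the difference was 0.202. Between feeders, the mean distances of 0.287 for HFF1 and 0.330 for MEF did not differ beyond the spread (exact permutation test within day, p = 0.35).

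Replicates were also less alike on feeders than among uncultured libraries. Pearson's r between log2 CPM of libraries ran from 0.937 to 0.953 among uncultured libraries, from 0.815 to 0.819 at HFF1 day 1, from 0.802 to 0.818 at MEF day 1, from 0.762 to 0.778 at HFF1 day 3 and from 0.689 to 0.720 at MEF day 3. In flat libraries of the same experiment r ran from 0.764 to 0.794 at day 1 and from 0.820 to 0.845 at day 3. The uncultured libraries were also the deepest. These values of r are descriptions across identifiers, which are not independent.

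**Figure D1:**
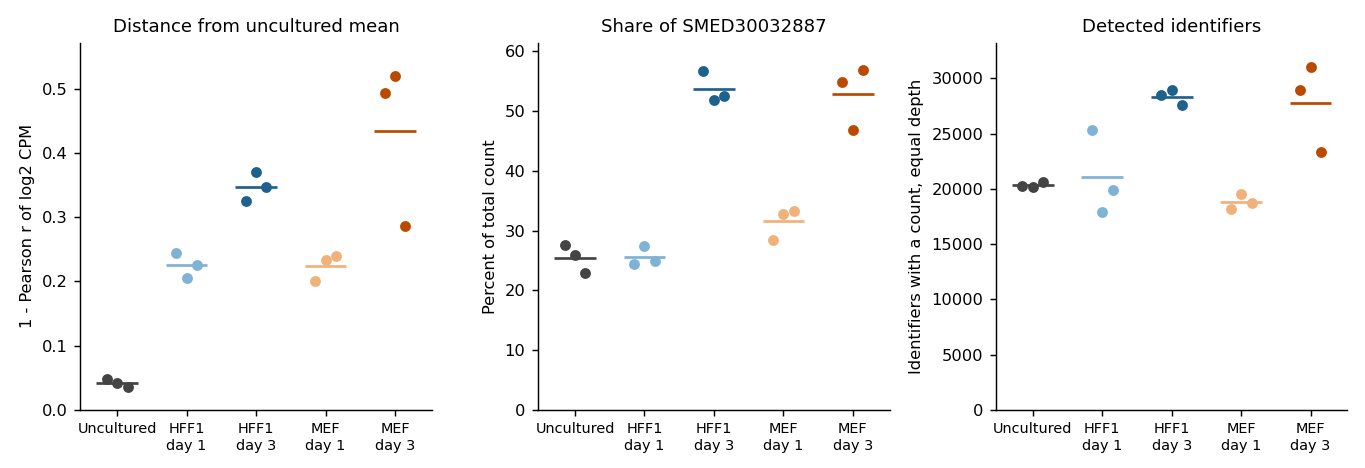
Each point is a library and each line a group mean (n = 3), for the distance from the uncultured mean (1 minus Pearson's r of log2 CPM), the percentage of all counts given to SMED30032887, and the number of identifiers with a count after thinning to equal depth. The 6 day 3 feeder libraries lie above the 6 day 1 feeder libraries in the first 2 panels, and the day 3 libraries hold 46.9% to 56.8% of their counts in SMED30032887.

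A single identifier took much of the counts in the day 3 feeder libraries. SMED30032887, the most abundant identifier of the experiment, took 27.5%, 25.9% and 22.9% of the counts in uncultured libraries. It took 24.4%, 27.4% and 24.9% at HFF1 day 1 and 28.4%, 32.9% and 33.3% at MEF day 1. At day 3 it took 56.7%, 51.9% and 52.6% on HFF1 and 54.9%, 46.9% and 56.8% on MEF. Day 1 HFF1 libraries overlapped the uncultured range, and no day 3 library did.

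The mean share was 53.3% at day 3 and 28.5% at day 1 (exact permutation test within feeder, p = 0.005, the smallest possible). In flat culture of the same experiment, without a feeder, the share was 26.8% ± 2.04 at day 1 and 44.8% ± 4.55 at day 3 (SD, n = 3 each). Flat culture in a separate experiment showed a share of 42.0% ± 6.07 (SD, n = 3) at day 3 against 24.0% ± 1.63 (SD, n = 3) uncultured in experiment 5. In experiment 3 the corresponding shares were 17.1% ± 2.31 and 13.1% ± 2.22 (SD, n = 3 each).

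The number of identifiers with a count rose with days on the feeder. After thinning to 6775383 counts, uncultured libraries held 20215, 20182 and 20650 identifiers. The HFF1 libraries held 25332, 17872 and 19904 at day 1 and 28505, 28948 and 27610 at day 3. The MEF libraries held 18179, 19500 and 18678 at day 1 and 28934, 30994 and 23365 at day 3. One HFF1 day 1 library, replicate 1, held more than the MEF day 3 library of replicate 3, so the days overlapped. The mean was 28060 at day 3 and 19910 at day 1 (exact permutation test within feeder, p = 0.005), while all feeder libraries together did not differ from uncultured libraries beyond the spread (23990 against 20350, exact permutation p = 0.251).

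Identifiers that were silent in uncultured neoblasts elsewhere took a larger share of the remaining counts at day 3 than at day 1. Remaining counts leave out the 4 most abundant identifiers, so the shares below are not shares of all counts. These 4 took means of 56.0% of all counts at day 3 and 33.0% at day 1 on feeders. Of the 36035 identifiers, 13442 were under 0.5 CPM in every uncultured library of experiments 3 and 5. They took 0.170%, 0.120% and 0.122% of the remaining counts in the uncultured libraries of experiment 4. At day 1 they took 0.640%, 0.380% and 0.449% on HFF1 and 0.574%, 0.613% and 0.462% on MEF. At day 3 they took 1.61%, 1.87% and 1.44% on HFF1 and 4.03%, 3.37% and 1.27% on MEF. All 12 feeder libraries exceeded the 3 uncultured libraries, and all 6 day 3 libraries exceeded the 6 day 1 libraries (2.26% against 0.520%, exact permutation p = 0.005). The difference between feeders and uncultured did not pass (1.39% against 0.137%, exact permutation p = 0.0571).

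Tests per identifier were made with edgeR's quasi-likelihood test, with Benjamini-Hochberg adjustment over the 26107 identifiers tested and a threshold of 0.05. The 4 contrasts with uncultured cells share the 3 uncultured libraries, so their results are given side by side and are not independent. After 1 day on HFF1, 2217 identifiers were higher and 862 lower than in uncultured cells, 11.8% of those tested. After 1 day on MEF, 1740 were higher and 1177 lower, 11.2%, a split that turned to 1202 higher and 1626 lower when only the compared groups were fitted. After 3 days on HFF1, 5217 were higher and 998 lower, 23.8%, and after 3 days on MEF, 5976 were higher and 1405 lower, 28.3%.

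Identifiers with low levels made up most of these calls. Among those with a mean of at least 10 CPM over the compared groups, 446 were higher and 92 lower at HFF1 day 1 (7.89% of 6815), and 369 higher and 89 lower at MEF day 1 (6.77% of 6766). At day 3 the split at this level was 472 higher and 596 lower on HFF1 (16.7% of 6401) and 565 higher and 959 lower on MEF (24% of 6354). This excess of lower calls was not stable. With DESeq2-style size factors (RLE) in edgeR it turned to 654 higher and 294 lower on HFF1 and to 853 higher and 442 lower on MEF. It also turned with TMM scaling, to 686 and 531 on HFF1 and 621 and 406 on MEF in fits of the compared groups alone, and to 502 and 285 on HFF1 and 636 and 471 on MEF at equal depth. Leaving out the 2 shallow MEF libraries leaves a single MEF day 3 library, so no split is given for that fit. RLE scaling raised the median log2 fold change of all identifiers from 0.19 to 0.82 on HFF1 and from 0.31 to 1.18 on MEF, so that only relative levels are reported here.

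The counts moved when a library was left out. Such a fit leaves 2 libraries in a group, and the low-count filter is run anew. The part of the library left out cannot be told apart from that of the smaller group. Without uncultured replicate 1, 2 or 3, HFF1 day 1 gave 869, 421 or 598 calls in place of 3079, and MEF day 1 gave 951, 395 or 697 in place of 2917. Without HFF1 day 1 replicate 1 the count was 1736, and without MEF day 1 replicate 2 or 3 it was 1561 or 1733. HFF1 day 3 gave 4063, 3109 or 3907 calls without uncultured replicate 1, 2 or 3, in place of 6215. MEF day 3 gave 5368, 5354 or 9222 calls without MEF day 3 replicate 1, 2 or 3, in place of 7381.

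**Figure D2:**
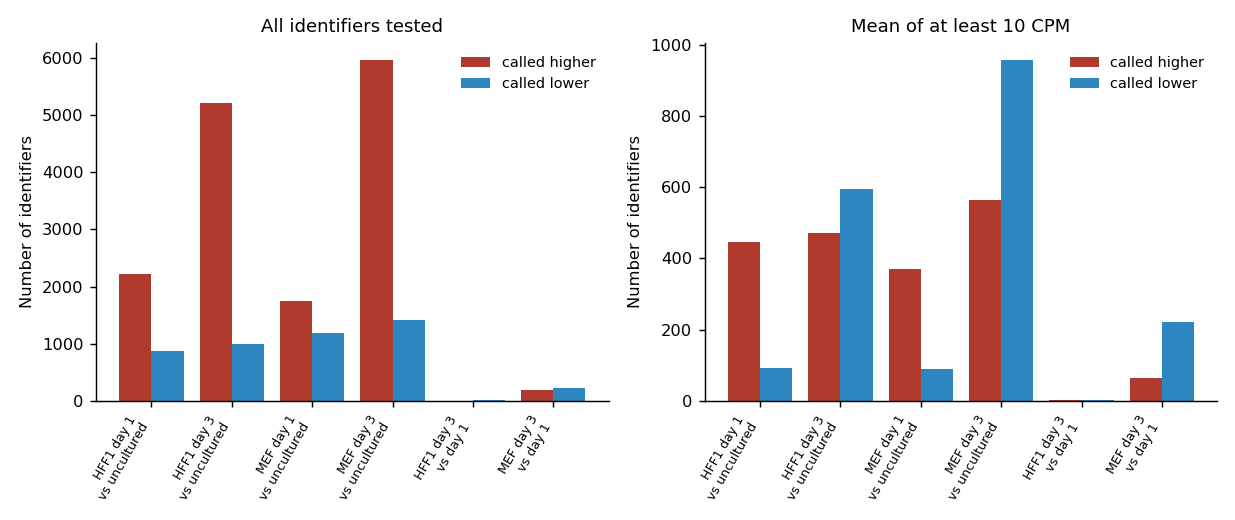
Bars give the number of identifiers called higher (red) or lower (blue) by edgeR's quasi-likelihood test in the 4 feeder contrasts and the 2 day contrasts, over all 26107 identifiers tested (left) and among those of at least 10 CPM (right). Higher calls outnumber lower calls in the 4 feeder contrasts on the left, which at MEF day 1 turns with only the compared groups fitted. On the right lower calls outnumber higher calls at day 3, a split that turns under RLE scaling, at equal depth and with only the compared groups fitted.

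Fold changes were also described by the level an identifier had in uncultured cells. Levels were taken from the uncultured libraries of experiments 3 and 5, which enter no contrast here. For the 8693 tested identifiers under 0.5 CPM there, the median log2 fold change was 2.40 at HFF1 day 1, 4.08 at HFF1 day 3, 1.66 at MEF day 1 and 4.59 at MEF day 3. Of these, 4068 were called higher and 16 lower at HFF1 day 3, and 4614 higher and 10 lower at MEF day 3. The 8693 are those of 17972 in the class that passed the low-count filter, some of them only through the groups where they are high, so these counts are a description.

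For the 1806 identifiers at 50 CPM and above, the median was -0.18 at HFF1 day 1, -1.05 at HFF1 day 3, -0.13 at MEF day 1 and -1.37 at MEF day 3. At day 1, 151 of these were called higher and 61 lower on HFF1, and 126 higher and 50 lower on MEF. At day 3 the calls were 39 higher and 356 lower on HFF1, and 43 higher and 556 lower on MEF. The medians did not fall steadily with level at day 1: from 0.5 to under 5 CPM they were -0.67 on HFF1 and -0.95 on MEF, and from 5 to under 50 CPM -0.23 and -0.21. At day 3 these 2 classes had medians of -0.03 and -0.98 on HFF1 and 0.15 and -1.25 on MEF. The day 1 medians of the class of 50 CPM and above turned sign with the setting. Without the low-count filter they were 0.25 on HFF1 and 0.26 on MEF, and at equal depth 0.08 and 0.17. From 5 to under 50 CPM the day 1 medians turned to 0.19 and 0.18 without the filter. Under RLE scaling the day 3 medians of the class of 50 CPM and above were -0.42 on HFF1 and -0.58 on MEF, and those of the lowest class were 4.66 and 5.48. Without the 2 shallow libraries, the MEF day 3 medians were 1.96 in the lowest class and -0.63 in the highest. The filter partly fixes the sign of the lowest class, and nothing is read from its difference to the others.

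**Figure D3:**
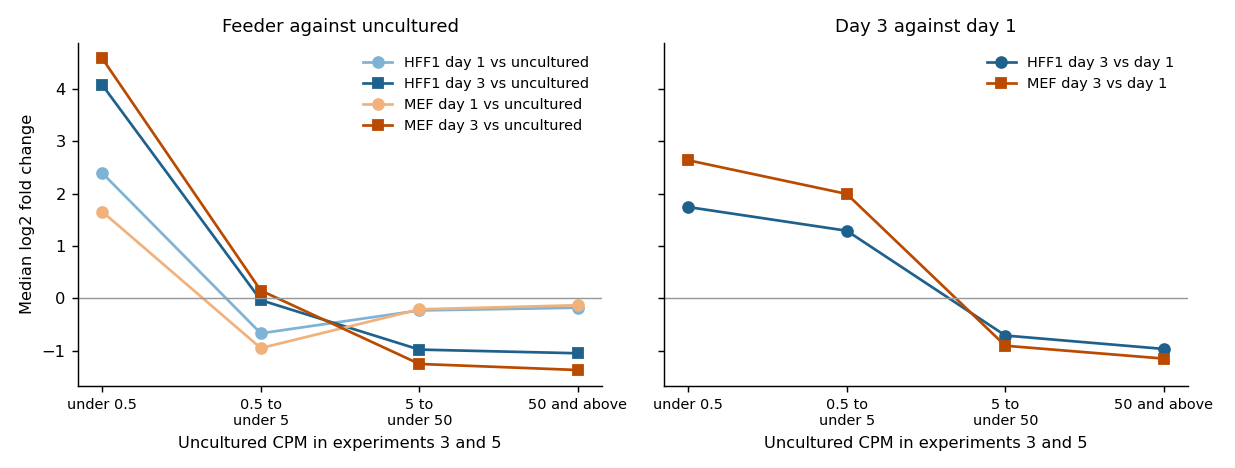
Lines join the median log2 fold change of 4 classes of identifiers, grouped by their uncultured CPM in experiments 3 and 5, for each feeder contrast (left) and each day contrast (right). The class under 0.5 CPM has medians of 1.66 to 4.59 against uncultured cells, and the class of 50 CPM and above has medians of -0.13 to -1.37. The day 1 medians of the latter class turned positive at equal depth and without the low-count filter.

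Among identifiers called in flat culture elsewhere, those called on feeders mostly had the same direction. Lists of 292 identifiers that rose and 297 that fell after 3 days of flat culture in both experiments 3 and 5 were read in experiment 4. None of the libraries behind these lists enters a contrast here. Of the 292, 108 were higher and 0 lower at HFF1 day 1, 120 higher and 2 lower at HFF1 day 3, 108 higher and 0 lower at MEF day 1, and 118 higher and 10 lower at MEF day 3. Their median log2 fold changes were 1.47, 1.07, 1.41 and 0.89, beside medians of 0.16, 0.19, 0.00 and 0.31 for all identifiers tested. Of all identifiers tested, 8.49%, 20%, 6.66% and 22.9% were called higher in the same order.

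Of the 297, 54 were lower and 2 higher at HFF1 day 1, 124 lower and 0 higher at HFF1 day 3, 63 lower and 1 higher at MEF day 1, and 150 lower and 0 higher at MEF day 3. Their medians were -1.74, -2.44, -1.74 and -2.78, and 3.3%, 3.82%, 4.51% and 5.38% of all identifiers tested were called lower. By library, the mean log2 CPM of the first list ran from 3.80 to 4.16 in uncultured libraries and from 5.33 to 5.80 on feeders. The mean of the second list ran from 5.61 to 6.17 in uncultured libraries and from 2.39 to 3.61 on feeders. Feeder and uncultured libraries did not overlap in either list.

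The lists were also read between day 1 and day 3. The median change of the second list was -0.86 on HFF1 and -1.21 on MEF, and that of the first was -0.06 and -0.22, beside 0.94 and 1.44 for all identifiers. Restricted to a mean of at least 10 CPM, the medians over identifiers tested were -0.90 on HFF1 and -1.08 on MEF. The second list's medians were close to these, so no fall particular to that list is read between the days. The medians of all identifiers were 0.07 and 0.11 at equal depth and 0.18 and -0.12 in fits of the compared groups alone, so the first list's difference from them depended on the setting. Under RLE scaling the second list's medians were -0.36 and -0.61 and the first list's turned to 0.43 and 0.37.

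**Figure D4:**
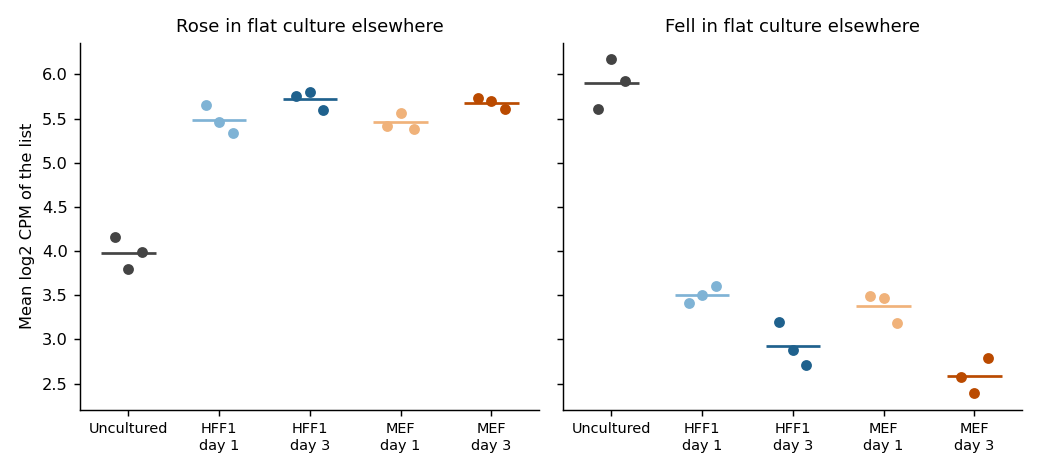
Points give the mean log2 CPM per library of the 292 identifiers that rose (left) and the 297 that fell (right) after 3 days of flat culture in experiments 3 and 5, with a line at each group's mean (n = 3). All 12 feeder libraries lie above the uncultured libraries on the left and below them on the right.

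Across the 6369 identifiers of at least 10 CPM tested in both, the log2 fold changes of HFF1 day 3 and of flat culture at day 3 in experiment 5 had a Pearson's r of 0.59, and those of MEF day 3 an r of 0.58. Against experiment 3, over 6366 identifiers, r was 0.35 and 0.34. At day 1, r lay between 0.43 and 0.47 for the 2 feeders against both experiments. Over all identifiers tested in both, r at day 3 was lower, at 0.24 for HFF1 and 0.21 for MEF against experiment 5 (22069 identifiers) and 0.29 and 0.26 against experiment 3 (19249 identifiers). These are descriptions across identifiers, and each experiment had uncultured libraries of its own.

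Some identifiers were far more abundant on both feeders than in uncultured cells. SMED30026505 stood at 30.5, 11.5 and 15.7 CPM in uncultured libraries. It stood at 782, 700 and 666 CPM at HFF1 day 1, and at 763, 1170 and 669 at HFF1 day 3. On MEF it stood at 1780, 1340 and 849 CPM at day 1 and at 4470, 1290 and 2280 at day 3. Every feeder library lay above every uncultured library. The log2 fold change against uncultured cells was 6.10 (SE 0.63, adjusted p = 9.7e-07) at MEF day 1 and 7.12 (SE 0.66, adjusted p = 1.01e-07) at MEF day 3. On HFF1 it was 5.22 and 5.49. The flat libraries of the same experiment stood at group means of 498 and 400 CPM, whereas in experiment 5 all flat and uncultured libraries held it at 0 and in experiment 3 flat means were at most 2.10 CPM.

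SMED30016538 stood at 0.504, 0.139 and 0.566 CPM in uncultured libraries and at 27.9, 23.9 and 20.7 CPM at MEF day 1. It reached 140, 181 and 53.0 CPM at MEF day 3 and 87.1, 105 and 76.3 CPM at HFF1 day 3. Its log2 fold change was 5.90 (SE 0.85, adjusted p = 0.000139) at MEF day 1. SMED30028163 stood at 0.237, 0 and 0.507 CPM uncultured and at 45.4, 13.5 and 15.6 CPM at HFF1 day 1. Its log2 fold change there was 6.64 (SE 1.09, adjusted p = 0.000481). Neither overlapped the uncultured range in any feeder library. Flat libraries of the same experiment were also high. For SMED30016538 their means were 50.8 CPM at day 1 and 49.2 at day 3, beside 28.7 on HFF1 and 24.2 on MEF at day 1. For SMED30028163 they were 41.0 and 41.5 CPM, beside 24.8 on HFF1 and 18.5 on MEF at day 1.

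SMED30003968 and SMED30009162 were among those named at day 3. SMED30003968 held 0 counts in each uncultured library, and 12.8, 3.11 and 71.3 CPM at HFF1 day 3 and 47.3, 108 and 2.11 at MEF day 3, so replicates of 1 group differed widely. It was at least 1140-fold higher on HFF1 and at least 2050-fold higher on MEF, taking 3 counts over the uncultured group as the floor. These bounds fell to 313-fold without HFF1 day 3 replicate 3, to 968-fold without MEF day 3 replicate 2 and to 82.7-fold without the 2 shallow MEF libraries. SMED30009162 stood at 0.0593, 0 and 0.0596 CPM uncultured and at 31.7, 49.2 and 12.4 CPM at MEF day 3 (log2 fold change 9.48, SE 1.44, adjusted p = 5.46e-05, edgeR). Flat libraries of the same experiment had means of 40.3 CPM at day 1 and 5.68 at day 3 for SMED30003968. For SMED30009162 these means were 9.94 and 12.8 CPM.

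One identifier separated the feeders. SMED30003527 held 0 counts in each uncultured library and stood at 41.2, 58.8 and 63.7 CPM at HFF1 day 1 and at 174, 234 and 208 CPM at HFF1 day 3. On MEF it stood at 0.664, 0.621 and 0.413 CPM at day 1 and at 0.528, 0.689 and 1.48 at day 3, and the flat libraries of this experiment held up to 7.49 CPM. Each HFF1 library lay above every other library of the experiment. It was at least 2140-fold and 8040-fold higher than in uncultured cells at HFF1 day 1 and day 3. The HFF1-against-MEF log2 fold change was 6.58 (SE 0.97, adjusted p = 0.00662) at day 1 and 7.80 (SE 1.02, adjusted p = 0.000755) at day 3, and it was the 1 identifier called of 26107 (0.00383%) at either time. Of the 26107 identifiers, 3100 and 1397 had an unadjusted p under 0.05 in edgeR. With no true difference, a share of about 0.05 would pass at that level, so these counts are not counts of differences. DESeq2 called 1011 and 139. The call of SMED30003527 did not hold in every fit without 1 library, each of which also has a smaller group. At day 1 it was lost without HFF1 replicate 2 or 3 or without any 1 of the 3 MEF libraries. At day 3 it was lost without MEF replicate 1, while 32 identifiers were called without MEF day 3 replicate 3.

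Only 1 other identifier, SMED30015893 (chosen after its values were seen), lay above all other libraries in the 6 HFF1 libraries, with group means of 3.15 and 9.00 CPM and no adjusted p under 0.05 between feeders. For MEF, 3 identifiers did so, SMED30006789, SMED30014438 and SMED30028893, with no adjusted p under 0.05. SMED30006789 stood at means of 167 and 263 CPM on MEF, 14.9 and 58.5 on HFF1 and 2.90 in uncultured cells. Of all identifiers tested, the share without overlap was 0.00766% for HFF1 and 0.0115% for MEF. All 12 feeder libraries lay above every other library in 0 identifiers and below in 1 (0.00383%), SMED30020163. The 6 day 1 feeder libraries lay above all others in 13 identifiers (0.0498%) and below in 25 (0.0958%). The 6 day 3 feeder libraries lay above in 120 (0.46%) and below in 37 (0.142%).

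Some identifiers of uncultured cells held no counts on feeders. Of all 36035 identifiers, some had at least 1 CPM in each uncultured library and 0 counts in every library of a feeder group. They numbered 110 at HFF1 day 1, 45 at HFF1 day 3, 288 at MEF day 1 and 75 at MEF day 3, each out of the 36035. How many of them were also at 0 in the flat libraries was not counted. The reverse, 0 counts in uncultured libraries and at least 1 CPM in every library of the group, held for 5, 157, 2 and 78. Their median levels in the group were 1.98, 1.89, 1.41 and 3.62 CPM. Of these identifiers, 0 were at 0 in all flat libraries. In uncultured libraries of experiment 3 or 5, 5, 142, 2 and 73 of them had counts. SMED30001715 stood at 38.1, 13.7 and 17.7 CPM in uncultured libraries and held 0 counts in each of the 12 feeder libraries. It was at least 482-fold, 368-fold, 353-fold and 236-fold lower at HFF1 day 1, HFF1 day 3, MEF day 1 and MEF day 3, taking 3 counts over each feeder group as the floor. These calls were lost in DESeq2, with adjusted p of 0.149 to 0.178 at HFF1 day 3, MEF day 1 and MEF day 3. In experiments 3 and 5, flat culture means were at most 0.176 CPM against uncultured means of 3.56 and 7.90 CPM.

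SMED30031540 stood at 10.4, 80.9 and 28.0 CPM in uncultured libraries and held 0 counts in all 6 day 1 feeder libraries. It was at least 827-fold lower on HFF1 and 606-fold lower on MEF at day 1, and at least 399-fold and 292-fold lower without uncultured replicate 2. SMED30021802 stood at 19.4, 44.2 and 30.6 CPM uncultured and held 0 counts at HFF1 day 1, at least 653-fold lower. At HFF1 day 3 it stood at 4.18, 0.778 and 0.391 CPM and was not called (adjusted p = 0.0653, edgeR). Its flat means in the same experiment were 3.92 CPM at day 1 and 2.37 at day 3. SMED30022652 stood at 29.1, 20.3 and 16.4 CPM and held 0 counts at HFF1 day 3, at least 348-fold lower. SMED30015410 stood at 35.0, 15.7 and 23.2 CPM and held 0 counts at MEF day 3, at least 250-fold lower. Neither SMED30022652 nor SMED30015410 was called at day 1 on either feeder. Flat means of the same experiment at day 1 and day 3 were 2.81 and 1.23 CPM for SMED30022652, and 0.337 and 4.22 for SMED30015410. In experiment 3, SMED30015410 had a mean of 13.6 CPM at flat day 3 against 16.3 uncultured. The floors cover at most counting error, and that only if each count is a separate molecule.

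**Figure D5:**
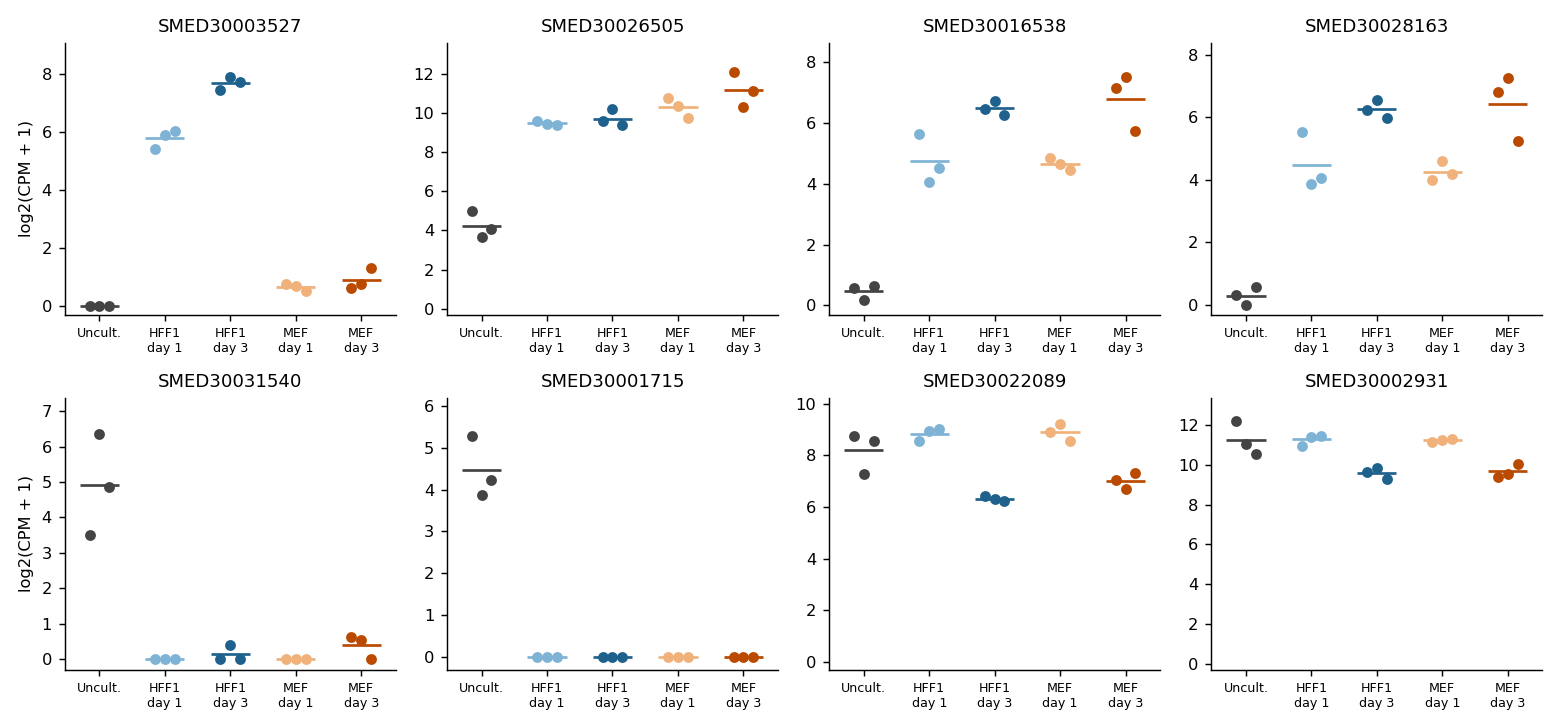
Points give log2(CPM + 1) of 8 identifiers in each library, with a line at the mean of each group (n = 3). SMED30003527 is high on HFF1 and near 0 on MEF, SMED30026505, SMED30016538 and SMED30028163 are high on both feeders, SMED30031540 and SMED30001715 are near 0 on feeders, and SMED30022089 and SMED30002931 fall between day 1 and day 3.

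In edgeR, few single identifiers passed between day 1 and day 3. On HFF1, 1 was higher and 3 lower at day 3 (0.0153% of those tested), although 4554 of the 26107 had an unadjusted p under 0.05 and DESeq2 called 1695. With no true difference, a share of about 0.05 would pass before adjustment. On MEF, 185 were higher (0.709%) and 225 lower (0.862%), in all 1.57%. Among identifiers of at least 10 CPM, the MEF calls were 64 higher and 220 lower (4.71%), and the 4 calls on HFF1 were 0.0653%. DESeq2 called 8018 higher and 845 lower on MEF. The MEF split turned to 1375 higher and 201 lower under RLE scaling and to 57 higher and 10 lower with only the compared groups fitted, and at 10 CPM RLE scaling gave 332 higher and 189 lower. In fits that each left out 1 of the 6 HFF1 libraries, the HFF1 count was 0 or 1. The MEF count was 68, 69 and 0 without day 1 replicates 1, 2 and 3, and 0, 1 and 2490 without day 3 replicates 1, 2 and 3.

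On HFF1 the called identifiers were SMED30032887, which rose (log2 fold change 1.04, SE 0.17, adjusted p = 0.0194, edgeR), and 3 that fell, named with their values known because they are so few. SMED30022089 fell from 374, 492 and 515 CPM to 85.6, 77.1 and 73.8 CPM (log2 fold change -2.55, SE 0.44, adjusted p = 0.0335, edgeR). SMED30002931 fell from 1990, 2750 and 2830 CPM to 797, 909 and 627 CPM (-1.70, SE 0.31, adjusted p = 0.0446, edgeR). SMED30003176 fell from 4630, 6910 and 8120 CPM to 2270, 2390 and 2190 CPM (-1.52, SE 0.27, adjusted p = 0.0335, edgeR). All 3 were also called lower on MEF, at -1.88, -1.53 and -1.10. These calls on HFF1 were lost under RLE scaling, with log2 fold changes of -2.06, -1.21 and -1.03, and none held in every fit without 1 library.

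On MEF, SMED30031990 rose from 0.133, 0.931 and 0.757 CPM at day 1 to 60.8, 53.4 and 150 CPM at day 3 (log2 fold change 7.17, SE 1.45, adjusted p = 0.0251, edgeR). The change of SMED30018898 was carried by 1 shallow library, with 3.96, 86.5 and 0.703 CPM at day 3 against 0, 0.248 and 0.138 at day 1. SMED30008705 held 11.8, 41.2 and 17.0 CPM at day 1 and 0 counts at day 3, at least 237-fold lower, or 146-fold without day 1 replicate 2. SMED30019717 fell from 89.7, 2.36 and 11.0 CPM to 0.792, 0.230 and 0.281 CPM. None of the MEF calls between days held in every fit without 1 library.

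The day changes of the 2 feeders come from different libraries and can be set against each other. Across the 26107 identifiers their log2 fold changes had a Pearson's r of 0.40, and across 6379 of at least 10 CPM an r of 0.38. Of the 185 identifiers called higher on MEF, 172 had the same sign on HFF1, with a median log2 change there of 1.68, beside 63% of all identifiers with that sign and a median of 0.94. Of the 225 called lower on MEF, 215 had the same sign on HFF1, with a median of -1.31, beside 36.9% of all identifiers. These shares of all identifiers are not matched for level. Of the 225, 220 had a mean of at least 10 CPM on MEF. On HFF1 the median day change over all identifiers of at least 10 CPM was already -0.90. The difference of day changes between HFF1 and MEF reached the threshold for 0 identifiers in edgeR. Before adjustment, 2585 of the 26107 had a p under 0.05, where a share of about 0.05 would pass with no true difference. DESeq2 called 466.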

How the data were processed

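RNA of experiment 4 was measured in 21 libraries, by template-switching reverse transcription, PCR and Tn5 tagmentation, per the labels' protocols. The authors deposited whole counts per identifier for experiments 4 and 5, and estimated counts, deposited with fractions and rounded here, for experiment 3. In experiment 4, 57.9% to 68.9% of the non-zero counts of a library were even. Per the submitters' processing notes, kallisto 0.46.2 and R 4.0.5 were used, with no step named for either. The reference, and the step that gave whole counts, were not stated in any source used. Tables of experiments 1 and 2 were not used. Rows were joined by identifier, since their order differs between the tables.

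All 7 groups of experiment 4 were fitted together in edgeR 4.0.16 (R 4.3.3) with its default expression filter, TMM scaling and the two-sided quasi-likelihood test. This kept 26107 of 36035 identifiers. CPM of named identifiers use TMM-scaled library sizes, and percentages of the counts use total counts. The share of silent identifiers instead uses the counts outside the 4 most abundant identifiers. SE is derived from the fold change and its F. Log2 CPM for distances used a prior count of 2. Library measures were compared with exact two-sided permutation tests. Alternatives were DESeq2 1.42.0, RLE scaling, no low-count filter, no flat libraries, only the compared groups, a replicate block, other distances and each library left out. Equal-depth thinning and leaving out the 2 shallow MEF day 3 libraries were added after the data were seen. The latter leaves a single MEF day 3 library. The edgeR step was tested on simulated data.

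Named identifiers were called, had a mean of at least 10 CPM and no overlap between groups, and held in every fit without 1 library where such existed. Of these, the 2 highest and 2 lowest log2 fold changes were taken. The members, lists and tests were chosen with earlier results of these data known. Floors of 3 counts cover at most counting error, taking each count as a separate molecule. Without molecular identifiers this was not tested, and most non-zero counts of each library were even. If counts came in pairs, the folds given as at least would be too high.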

Additional observations from a re-analysis of the deposited data

Results flagged for a closer look

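The feeders differed in SMED30003527 by a log2 fold change of 6.58 at day 1 and 7.80 at day 3 (adjusted p = 0.00662 and 0.000755, edgeR's quasi-likelihood test on all 26107 identifiers). Both values were singled out because the difference between the effects of HFF1 and MEF was itself tested and passed. All 6 HFF1 libraries lay above all 6 MEF libraries. The identifier was at 0 in all flat and uncultured libraries of experiment 5, and at means of 1.19 to 10.6 CPM in those of experiment 3. The source of this RNA was not tested.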

How the results depend on the processing

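DESeq2 called 5616 at HFF1 day 1, 5412 at MEF day 1, 1695 for the HFF1 day change, 8863 for the MEF day change, 1011 and 139 between feeders at day 1 and day 3, and 466 for the difference of day changes. Thinning gave 1694 at HFF1 day 1, 2696 at HFF1 day 3, 1798 at MEF day 1, 3342 at MEF day 3 and 1 for the HFF1 day change. With only the compared groups fitted, MEF day 3 gave 4172 calls, the HFF1 day change 13, the MEF day change 67, and the feeders differed in 0 at either day. RLE scaling gave 1 and 1576 for the HFF1 and MEF day changes, no low-count filter 0 and 155, and no flat libraries 41 and 637. Without the 2 shallow libraries MEF day 3 gave 1386, the MEF day change 1 and the feeders at day 3 differed in 0. The cause was not tested. RLE scaling moved the split to 7322 higher and 605 lower at MEF day 3 and to 1375 and 201 for the MEF day change, DESeq2 to 8018 and 845 and fitting only the compared groups to 57 and 10 for the latter, no filter to 10 and 145 for it, and fitting only the compared groups turned MEF day 1 to 1202 higher and 1626 lower.

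Leaving out 1 library at a time gave 421 to 2706 calls at HFF1 day 1, 3109 to 5289 at HFF1 day 3, 395 to 2087 at MEF day 1 and 4979 to 9222 at MEF day 3. It gave 0 to 1 for the HFF1 day change, 0 to 2490 for the MEF day change, 0 to 1 and 0 to 32 between feeders at day 1 and day 3, and 0 to 1 for the difference of day changes. The distance difference ran from 0.144 to 0.203 (highest exact permutation p = 0.015), that of detected identifiers from 2999 to 4192 and that of the top 4 identifiers' share from 10.1 to 12.9 percentage points.

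Replicate numbers did not pair the libraries: deviations of same-numbered libraries correlated at -0.0412 to 0.0518. With a replicate block, the HFF1 day change had 10 calls, and the other total counts stayed within 1.5 times of those reported. The MEF day change then had 73 higher and 208 lower calls. No named identifier's fold change turned its sign in the comparison that named it under the alternatives run, whereas the splits into higher and lower calls named above and in the report did turn. Depth limits the MEF day 3 libraries of replicates 1 and 2 most.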
